A study of Homo sapiens with 15 samples.

Results

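The 9 genes described here are NQO1, HMOX1, TXNRD1, SRXN1 and OSGIN1, which are known targets of the transcription factor NRF2, and the aldo-keto reductase genes AKR1B10, AKR1C1, AKR1C2 and AKR1C3. They were taken by symbol from a table of 62754 genes, and all 9 had 1 row each. RNA was sequenced from MCF10A, an immortalised but non-tumorigenic human mammary epithelial cell line of wild-type genotype. The cells were grown in DMEM/F12 with mammary growth supplements, cholera toxin and antibiotics, with glutamine limited to 0.04 mM, 0.12 mM, 0.20 mM or 0.28 mM, or at its usual 2.5 mM in full medium. Each of the 5 groups had 3 biological replicates, numbered 1 to 3, which gave 15 libraries. How long the cells were kept in each medium is not given in the sources used here, and all results are from this 1 cell line.

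NRF2, encoded by NFE2L2, is held low by KEAP1, an adaptor that presents it to a CUL3 ubiquitin ligase. Electrophiles and oxidants modify cysteines of KEAP1, and NRF2 then accumulates, pairs with small MAF proteins and binds antioxidant response elements in DNA, which the repressor BACH1 can also occupy. Its targets include quinone, thioredoxin and carbonyl reductases, heme oxygenase and the enzymes that make glutathione, a peptide whose glutamate can come from glutamine. The AKR1C enzymes reduce carbonyl groups of steroids, prostaglandins and products of lipid oxidation with NADPH.

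AKR1C1, AKR1C2 and AKR1C3 lie side by side on chromosome 10 and are close copies of each other, so their sequences bear on every value given for them. The first 120 coding bases of each, from the reference transcripts of GENCODE 29, are shown with capitals at bases that differ from AKR1C1.
AKR1C1: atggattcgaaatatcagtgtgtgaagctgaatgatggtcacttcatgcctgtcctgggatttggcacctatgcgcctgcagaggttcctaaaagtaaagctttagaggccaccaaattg
AKR1C2: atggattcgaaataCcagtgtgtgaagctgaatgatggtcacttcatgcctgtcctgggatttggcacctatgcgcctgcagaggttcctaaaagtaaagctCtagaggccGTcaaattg
AKR1C3: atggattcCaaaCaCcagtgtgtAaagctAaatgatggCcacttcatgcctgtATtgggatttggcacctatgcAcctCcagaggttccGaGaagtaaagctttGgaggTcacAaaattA
AKR1C2 differed from AKR1C1 at 4 of these bases and AKR1C3 at 16. Over the whole coding sequence of 969 bases, AKR1C1 and AKR1C2 were identical at 950 bases (98.0%), AKR1C1 and AKR1C3 at 886 (91.4%) and AKR1C2 and AKR1C3 at 882 (91.0%). Of all stretches of 50 bases in the principal transcript, 52.2% in AKR1C2, 28.6% in AKR1C1 and 10.5% in AKR1C3 also occurred in a transcript of the other 2 genes. How reads from such stretches were assigned is not given in the sources used here, so the split between these 3 genes is uncertain and their sum is given beside them.

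The 250 bases before 1 transcription start of each of these genes, from RefSeq on GRCh38.p14, are shown because these neighbouring genes are compared with each other in what follows. For AKR1C3, which has 2 tabulated starts, the one at the start of the gene is shown, while the tabulated start of AKR1C2 lies within the span of the gene. Capitals mark bases that differ from AKR1C1 or lie outside the alignment with it.
AKR1C1 (chr10:4963165-4963414, plus strand): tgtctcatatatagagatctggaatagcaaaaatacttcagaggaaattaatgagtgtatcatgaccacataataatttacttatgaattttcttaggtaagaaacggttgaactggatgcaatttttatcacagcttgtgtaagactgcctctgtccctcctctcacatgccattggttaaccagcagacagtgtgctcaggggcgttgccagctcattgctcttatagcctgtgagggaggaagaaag
AKR1C2 (chr10:5003858-5004107, minus strand): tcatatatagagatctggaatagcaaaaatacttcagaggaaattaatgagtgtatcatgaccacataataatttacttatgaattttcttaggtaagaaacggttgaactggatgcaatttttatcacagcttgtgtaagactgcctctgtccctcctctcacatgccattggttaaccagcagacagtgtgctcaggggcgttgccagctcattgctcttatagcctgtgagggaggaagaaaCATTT
AKR1C3 (chr10:5048531-5048780, plus strand): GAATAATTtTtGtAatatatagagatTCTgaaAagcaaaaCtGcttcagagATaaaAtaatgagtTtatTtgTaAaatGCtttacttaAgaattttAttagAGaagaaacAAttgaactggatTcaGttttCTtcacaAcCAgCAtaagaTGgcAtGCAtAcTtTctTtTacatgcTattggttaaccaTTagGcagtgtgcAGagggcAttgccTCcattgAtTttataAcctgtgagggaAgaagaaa
AKR1C1 and AKR1C2 were identical at 245 of 246 aligned bases (99.6%), whereas AKR1C1 and AKR1C3 were identical at 185 of 250 (74%). The core of the antioxidant response element, TGACNNNGC, was searched on both strands from 250 bases before to 50 bases after each tabulated start. RefSeq sequence for 7 of the 9 genes was matched, in 9 windows, with none for HMOX1 or AKR1B10. The core occurred in 2 of the 9 windows, both of TXNRD1, and in 4687 of 35116 such windows of all genes (13.35%). The first match in each of these TXNRD1 windows is shown in capitals with the bases that flank it. The window of the first start holds 2 matches, and the one not shown begins 8 bases before that start and runs across it.
TXNRD1 (chr12:104215650-104215718, plus strand): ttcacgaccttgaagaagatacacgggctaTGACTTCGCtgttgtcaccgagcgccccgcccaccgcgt
TXNRD1 (chr12:104286900-104286968, plus strand): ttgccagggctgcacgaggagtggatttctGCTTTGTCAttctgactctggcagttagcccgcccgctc
These matches lie upstream of different TXNRD1 starts. A match is a description of these letters only. Bases outside the windows were not searched, so a window without a match does not show that a gene lacks the element.

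The libraries held 3704170 to 13361406 gene counts, and ERCC spike-ins, RNAs of known amount added to each sample, took 1.03 to 1.58% of all counts. All 11 listed markers of basal breast epithelial cells were expressed, at a summed 16464 to 27378 CPM (gene counts scaled to a common library size, with library sizes scaled by TMM factors), whereas the 5 immune markers summed to at most 0.540 CPM, with CD3E and MS4A1 at 0. The 6 luminal markers summed to 476 to 588 CPM at 0.04 mM and 484 to 608 CPM in full medium. Of these 6, 3 passed the filter on low counts. The 7 fibroblast markers, of which 2 passed the filter on low counts, summed to 50.4 to 61.0 CPM at 0.04 mM and 33.3 to 45.8 CPM in full medium, with LUM at 0. The 4 endothelial markers, of which 1 passed, summed to 5.84 to 12.2 CPM at 0.04 mM and 3.77 to 5.68 CPM in full medium, with CDH5 at 0, and the part of these differences in the results was not tested. Mitochondrial ribosomal RNA made up 2.97% of the gene counts in replicate 3 at 0.04 mM and 1.62% in replicate 3 at 0.12 mM, against at most 0.402% in the other libraries. In bulk RNA, fewer cells that express a gene and less RNA per cell cannot be told apart.

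NQO1, TXNRD1, AKR1C1 and AKR1C3 were higher at 0.04 mM glutamine than in full medium, by 0.43, 0.35, 0.68 and 0.37 on the log2 scale, and all 4 rose when the replicate number was taken into account. Libraries with the same number resembled each other beyond their group, so each comparison was fitted with edgeR both without and with the number as a block, and "rose" and "fell" below mean an adjusted p under 0.05 with the block. With it, 4 of the 9 genes rose at 0.04 mM, where 7.21% of all 13828 tested genes rose, and 5 at 0.12 mM, where 4.41% did. At 0.20 mM 3 of the 9 rose, where 7.67% of all genes did, and at 0.28 mM 2 rose, where 1.23% did. None of the 9 fell at any concentration. The 9 genes were chosen with earlier results of these data known, so these shares are descriptions and not a test of the 9 as a set. Without the block 0 of the 9 passed at any concentration by edgeR or DESeq2, with 4 genes at an unadjusted edgeR p under 0.05 at 0.04 mM, 5 at 0.12 mM, 2 at 0.20 mM and 0 at 0.28 mM. The share of all genes at that unadjusted p was 11.6% at 0.04 mM, 8.03% at 0.12 mM, 10.2% at 0.20 mM and 4.45% at 0.28 mM. By adjusted p without the block, edgeR called 0.0434% of all genes at 0.04 mM, 0% at 0.12 mM, 0.0145% at 0.20 mM and 0% at 0.28 mM, while DESeq2 called 155, 23, 43 and 1 of the 13828 genes. The 4 comparisons share the same full-medium libraries. At 0.04 mM the calls of TXNRD1 and AKR1C3 were lost without both libraries rich in mitochondrial ribosomal RNA. Those of NQO1 and AKR1C1 were kept.

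The median log2 fold change of the 9 genes with the block was 0.35, 0.46, 0.25 and 0.21 from the lowest to the highest limited concentration, where the median of all tested genes was 0.0064, 0.0047, 0.0033 and 6.7e-05. The choice of the 9 genes with earlier results known bears on these medians too. All 9 passed the filter on low counts. HMOX1, SRXN1 and AKR1B10 rested on 2 to 33 counts per library, OSGIN1 on 16 to 109 and the other 5 on 325 or more.

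**Figure D1:**
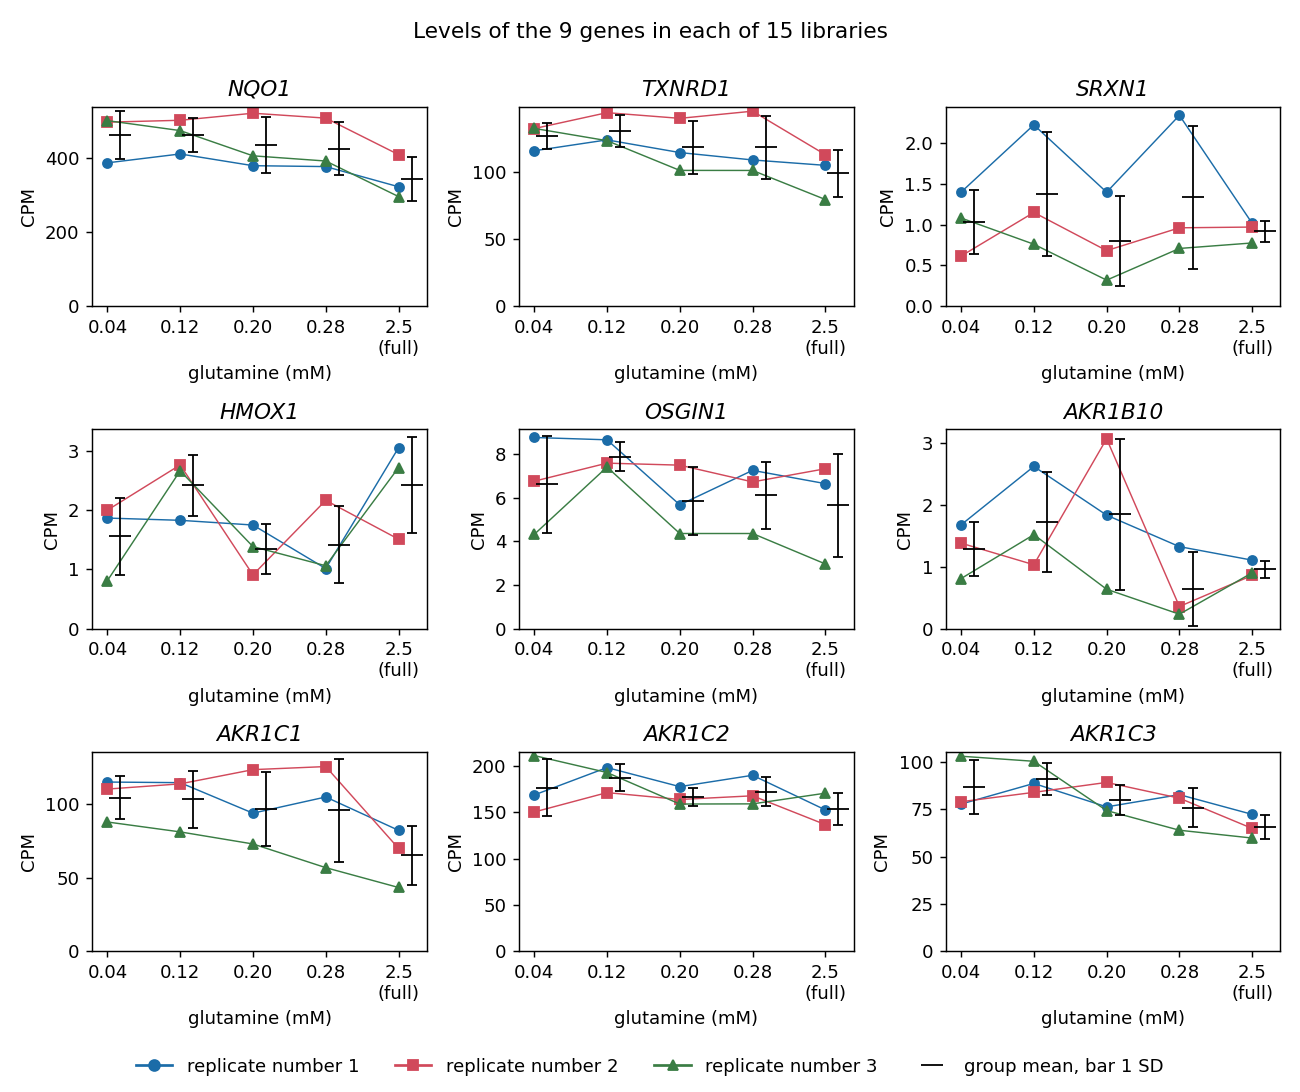
Level of each of the 9 genes in CPM (vertical axes, from 0) in each library, by glutamine concentration in mM, with points of 1 replicate number joined and black bars for the group mean and 1 SD (n = 3). NQO1, TXNRD1, AKR1C1 and AKR1C3 lie higher in every limited library than in the full-medium library of the same number, while HMOX1, SRXN1 and AKR1B10 stay at or below 3.07 CPM.

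Levels between genes can be compared only per transcript length. Per kilobase of the principal transcript, NQO1 had the highest level in both 0.04 mM cultures and full medium, at 158.5 ± 22.2 and 117.6 ± 20.4 CPM per kilobase (SD, n = 3 each). AKR1C2 followed with 47.0 ± 8.30 and 40.8 ± 4.51, AKR1C3 with 47.9 ± 7.87 and 36.3 ± 3.47, and TXNRD1 with 29.6 ± 2.24 and 23.2 ± 4.08 CPM per kilobase at 0.04 mM and in full medium. On this scale AKR1C2 and AKR1C3 differed by less than their spread, and TXNRD1 stood below both. AKR1C1 had 15.6 ± 2.16 and 9.72 ± 2.96 CPM per kilobase, a place that depends on its long reference transcript of 6705 bases. Per kilobase of coding sequence, AKR1C1 and AKR1C3 were level in full medium, at 67.3 ± 20.5 and 67.8 ± 6.48 CPM. AKR1C2 then stood well above both, at 158.1 ± 17.5 CPM. TXNRD1, at 60.3 ± 10.6 CPM, differed from AKR1C1 and AKR1C3 by less than its spread. The order of these genes below NQO1 thus depends on the length used. OSGIN1, HMOX1, AKR1B10 and SRXN1 stood far lower, between 2.53 and 0.341 CPM per kilobase of the principal transcript in full medium.

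NQO1, a cytosolic quinone reductase that uses NADPH or NADH, spans chr16:69709401-69726560 on GRCh38.p14 (ENSG00000181019). It had 387, 497 and 501 CPM in replicates 1, 2 and 3 at 0.04 mM, 411, 502 and 474 CPM at 0.12 mM, 379, 521 and 406 CPM at 0.20 mM, 377, 508 and 392 CPM at 0.28 mM, and 322, 409 and 296 CPM in full medium. Each limited library stood above the full-medium library of its number, but at 0.12 mM alone did the group lie wholly above full medium, because replicate 2 in full medium was higher than at least 1 library at each of the other concentrations. The groups did not overlap in this way for 5.53% of all genes at 0.12 mM. With the block NQO1 rose at all 4 concentrations, by 0.43 (SE 0.0767, edgeR adjusted p = 0.00029) at 0.04 mM, 0.44 (SE 0.0763, 0.000523) at 0.12 mM, 0.34 (SE 0.0761, 0.00263) at 0.20 mM and 0.31 (SE 0.0761, 0.0242) at 0.28 mM. Without the block the same differences had edgeR adjusted p-values of 0.288, 0.515, 0.475 and 1. The difference at 0.04 mM was 0.76 for replicate 3, the library with the most mitochondrial ribosomal RNA and the fewest counts, against 0.26 and 0.28 for replicates 1 and 2. At 0.12 mM it was 0.35, 0.29 and 0.68 in replicates 1, 2 and 3. NQO1 still passed with the block when replicate 3 at 0.04 mM was left out, and when any single library was left out at 0.04, 0.12 or 0.20 mM. At 0.28 mM the call was kept in 1 of 6 such fits, the one without replicate 1 of full medium, and was otherwise lost, with an edgeR adjusted p of up to 0.160. An antisense gene, AC092115.2, covers 17.7% of the exonic bases of NQO1 but had only 0 to 2 counts per library.

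TXNRD1, the cytosolic thioredoxin reductase, a selenoprotein that recycles thioredoxin with NADPH, spans chr12:104215779-104350307 (ENSG00000198431). It had 116, 132 and 132 CPM in replicates 1, 2 and 3 at 0.04 mM, 124, 144 and 123 CPM at 0.12 mM, 114, 139.9 and 101 CPM at 0.20 mM, 109, 145 and 101 CPM at 0.28 mM, and 105, 113 and 79.5 CPM in full medium. At 0.04 and 0.12 mM every library lay above all 3 of full medium, as for 6.95 and 5.53% of all genes, while at 0.20 mM replicate 3, and at 0.28 mM replicates 1 and 3, lay within the range of full medium. TXNRD1 rose by 0.35 (SE 0.0854, edgeR adjusted p = 0.00604) at 0.04 mM, 0.39 (SE 0.0837, 0.0029) at 0.12 mM and 0.25 (SE 0.0831, 0.0371) at 0.20 mM with the block. At 0.28 mM its value of 0.25 (SE 0.0833, 0.113) did not pass. Without the block its edgeR adjusted p-values were 0.396, 0.559, 0.566 and 1. The call at 0.04 mM was lost without replicate 3 of either group, with an adjusted p of up to 0.0768, and when both libraries rich in mitochondrial ribosomal RNA were left out. Against the full-medium library of the same number, the log2 differences at 0.04 mM were 0.14, 0.23 and 0.74 in replicates 1, 2 and 3. At 0.12 mM they were 0.24, 0.35 and 0.63. The call at 0.20 mM was kept in only 1 of 6 fits that left out a library (adjusted p up to 0.210), without replicate 1 of full medium. At 0.12 mM it was kept in 6 of 6.

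SRXN1 encodes sulfiredoxin, which repairs overoxidised peroxiredoxins, and OSGIN1 an oxidative stress-induced growth inhibitor. SRXN1 (chr20:646615-653200, ENSG00000271303) had 1.40, 0.614 and 1.08 CPM at 0.04 mM in replicates 1, 2 and 3, and 1.02, 0.970 and 0.775 CPM in full medium, with 0.319 to 2.34 CPM in the other 9 libraries. The groups overlapped at every concentration, and its log2 differences of 0.06 (SE 0.508), 0.57 (SE 0.459), -0.23 (SE 0.489) and 0.51 (SE 0.453) from 0.04 to 0.28 mM did not pass with the block (edgeR adjusted p 0.506 to 0.958). Another gene on the same strand, AL121758.1, covers 85.0% of the SRXN1 exonic bases and had 0 counts in all 15 libraries, so reads in the shared part may not be counted and the SRXN1 level is uncertain. OSGIN1 (chr16:83953240-83966332, ENSG00000140961) had 8.76, 6.76 and 4.32 CPM at 0.04 mM, 8.65, 7.59 and 7.41 CPM at 0.12 mM, and 6.65, 7.33 and 2.97 CPM in full medium. At 0.12 mM the 3 OSGIN1 libraries lay just above those of full medium, yet the difference of 0.47 (SE 0.209, edgeR adjusted p = 0.175) did not pass, nor did those of 0.26, 0.05 and 0.12 at 0.04, 0.20 and 0.28 mM. Exons of AC009119.2, whose identifier was not among the genes counted, overlap 13.9% of its exonic bases.

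HMOX1, the inducible heme oxygenase and a target that BACH1 is known to repress, spans chr22:35381096-35394207 (ENSG00000100292) and did not pass at any concentration. It had 1.86, 2.00 and 0.811 CPM in replicates 1, 2 and 3 at 0.04 mM, 1.83, 2.76 and 2.66 CPM at 0.12 mM, 1.75, 0.908 and 1.38 CPM at 0.20 mM, 1.01, 2.16 and 1.06 CPM at 0.28 mM, and 3.05, 1.51 and 2.71 CPM in full medium. Only at 0.20 mM were all 3 limited libraries lower than the full-medium library of the same number, and the groups overlapped at every concentration. The log2 differences were -0.54 (SE 0.422), -0.05 (SE 0.386), -0.82 (SE 0.405) and -0.82 (SE 0.408) from 0.04 to 0.28 mM, and none passed with the block (edgeR adjusted p 0.178 to 0.961). HMOX1 had 3 to 33 counts per library, and the part of low counts and of variation between replicates in these errors was not tested. AKR1B10, a reductase of retinal and other aldehydes, spans chr7:134527567-134541412 (ENSG00000198074) and was as low, at 1.68, 1.38 and 0.811 CPM at 0.04 mM and 1.11, 0.862 and 0.904 CPM in full medium. Its highest library was replicate 2 at 0.20 mM with 3.07 CPM and its lowest replicate 3 at 0.28 mM with 0.236 CPM. Its log2 differences of 0.42 (SE 0.533), 0.82 (SE 0.492), 0.91 (SE 0.48) and -0.51 (SE 0.554) did not pass with the block (edgeR adjusted p 0.213 to 0.71).

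AKR1C1, which inactivates progesterone by reducing it, showed the largest rise of the 9 genes at each of the 4 concentrations among those that passed. It lies at chr10:4963415-4983283 (ENSG00000187134). Its levels were 115, 110.1 and 87.8 CPM in replicates 1, 2 and 3 at 0.04 mM, 114, 114 and 81.1 CPM at 0.12 mM, 93.8, 123 and 72.9 CPM at 0.20 mM, 105, 125 and 56.9 CPM at 0.28 mM, and 82.2, 70.0 and 43.4 CPM in full medium. Replicate 3 was the lowest library in every group, and each limited library stood above the full-medium library of its number. At 0.04 mM the group did not overlap with full medium, while at the other 3 concentrations replicate 3 fell within its range. AKR1C1 rose by 0.68 (SE 0.107, edgeR adjusted p = 7.55e-05) at 0.04 mM, 0.67 (SE 0.105, 0.000176) at 0.12 mM, 0.57 (SE 0.105, 0.000449) at 0.20 mM and 0.53 (SE 0.105, 0.00599) at 0.28 mM with the block. Without it the edgeR adjusted p-values were 0.316, 0.561, 0.482 and 1. The calls at 0.04, 0.12 and 0.20 mM were kept in 6 of 6 fits that left out a library, and that at 0.28 mM in 3 of 6 (adjusted p up to 0.0769), lost without replicate 1 or 2 at 0.28 mM or replicate 2 of full medium. Against the full-medium library of the same number, its log2 differences at 0.04 mM were 0.48, 0.65 and 1.02 in replicates 1, 2 and 3. At 0.12 mM they were 0.48, 0.70 and 0.90.

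AKR1C2, known for reducing dihydrotestosterone to a weak androgen, had the smallest differences of the 3 at each concentration. It lies at chr10:4987775-5018000 (ENSG00000151632). It had 169, 150.2 and 211 CPM at 0.04 mM, 198, 171 and 193 CPM at 0.12 mM, 178, 164 and 159 CPM at 0.20 mM, 189.8, 168 and 159 CPM at 0.28 mM, and 153, 137 and 171 CPM in full medium. Only at 0.12 mM did its groups not overlap, by less than 1 CPM. It rose at 0.12 mM, by 0.29 (SE 0.0816, edgeR adjusted p = 0.0215 with the block and 0.598 without), and did not pass with the block at 0.04 mM (0.19, 0.126), 0.20 mM (0.13, 0.315) or 0.28 mM (0.18, 0.284). The call at 0.12 mM was kept in 3 of 6 fits that left out a library, and lost without replicate 1 at 0.12 mM or replicate 1 or 2 of full medium, with an adjusted p of up to 0.103. With the block it was also lost without both libraries rich in mitochondrial ribosomal RNA, and when only the compared groups were fitted.

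AKR1C3, which makes testosterone and prostaglandin F compounds, stood between them in size. It lies at chr10:5048781-5107686 (ENSG00000196139). It had 77.7, 79.0 and 103 CPM at 0.04 mM, 88.6, 83.9 and 100.3 CPM at 0.12 mM, 76.2, 89.1 and 74.3 CPM at 0.20 mM, 82.7, 80.8 and 63.9 CPM at 0.28 mM, and 72.3, 64.9 and 59.8 CPM in full medium. The 9 libraries at 0.04, 0.12 and 0.20 mM all lay above those of full medium, and at 0.28 mM replicate 3 did not. The share of all genes wholly above full medium was 7.15% at 0.20 mM and 4.34% at 0.28 mM. AKR1C3 rose by 0.37 (SE 0.107, edgeR adjusted p = 0.0195) at 0.04 mM and 0.46 (SE 0.104, 0.00518) at 0.12 mM with the block, and did not pass at 0.20 mM (0.28, 0.0678) or 0.28 mM (0.21, 0.328). Without the block the edgeR adjusted p-values were 0.268, 0.39, 0.489 and 1. Its call at 0.04 mM was lost without replicate 3 at 0.04 mM or replicate 2 or 3 of full medium, with an adjusted p of up to 0.207, while that at 0.12 mM was kept in 6 of 6 fits that left out a library. The call at 0.04 mM was also lost without both libraries rich in mitochondrial ribosomal RNA, which include replicate 3 at 0.04 mM. Against the full-medium library of the same number, the log2 differences at 0.04 mM were 0.10, 0.28 and 0.78 in replicates 1, 2 and 3. At 0.12 mM they were 0.29, 0.37 and 0.75.

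**Figure D2:**
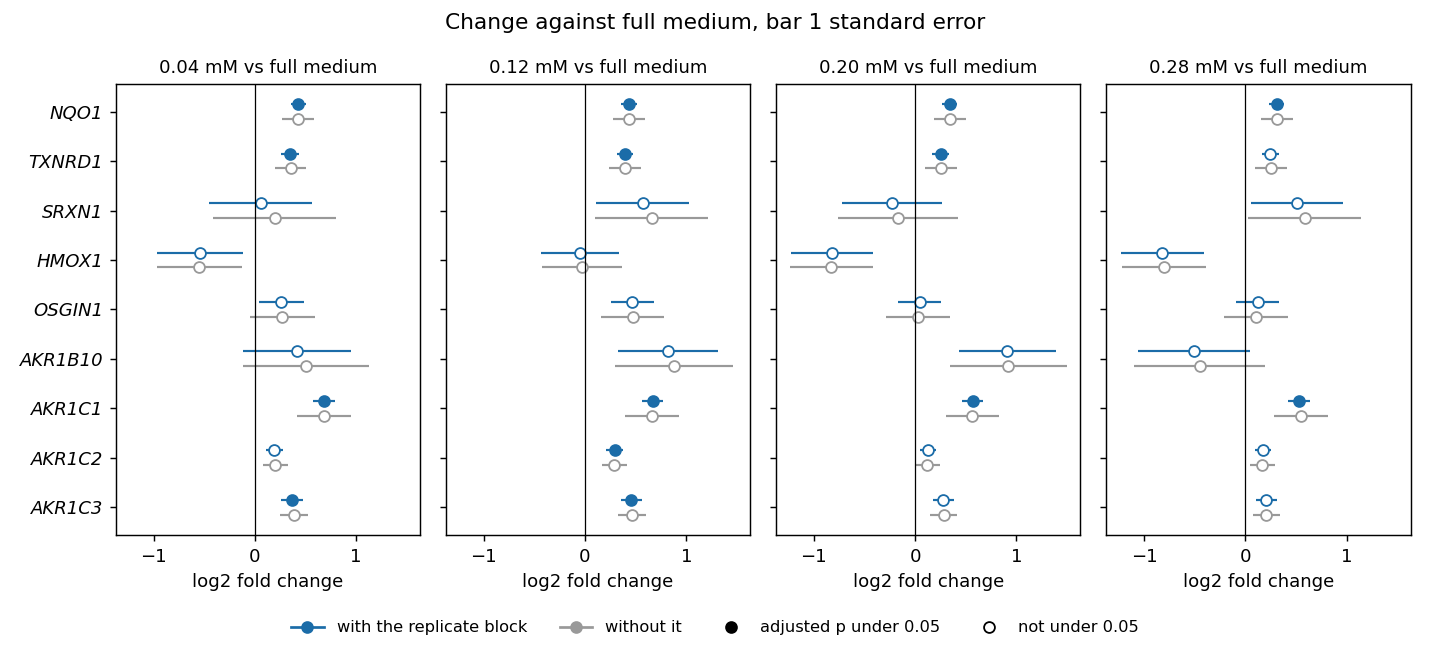
Log2 fold change (horizontal axis) of each gene against full medium in 4 panels, 1 per glutamine concentration, with bars of 1 standard error, blue with the replicate block and grey without, filled where the edgeR adjusted p was under 0.05. The estimates of the 2 fits lie close together, the errors of NQO1, TXNRD1 and AKR1C1 are narrower with the block, and no grey point is filled.

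AKR1C4, the remaining AKR1C gene and mainly a liver enzyme, had 0 counts in all 15 libraries and was not tested. The summed level of AKR1C1, AKR1C2 and AKR1C3 was 361, 339 and 402 CPM at 0.04 mM, 401, 369 and 374 CPM at 0.12 mM, 348, 376 and 306 CPM at 0.20 mM, 377, 374 and 279.8 CPM at 0.28 mM, and 307, 272 and 274 CPM in full medium. This sum does not depend on how reads were split among the 3 genes if each shared read was counted 1 time. Whether shared reads were instead dropped or counted more often is not known. The ratio of the group mean to that of full medium was 1.29, 1.34, 1.21 and 1.21 from 0.04 to 0.28 mM, without a test. The sum was higher than in the full-medium library of the same number in all 12 limited libraries, but by only 0.03 on the log2 scale in replicate 3 at 0.28 mM.

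The share of AKR1C1 in that sum was 31.8, 32.5 and 21.9% in replicates 1, 2 and 3 at 0.04 mM, and 28.5, 30.8 and 21.7% at 0.12 mM. At 0.20 mM it was 27.0, 32.8 and 23.8%, and at 0.28 mM 27.8, 33.5 and 20.3%. In full medium the share was 26.8, 25.8 and 15.9%. It was thus higher in each limited library than in the full-medium library of its number. The mean log2 ratio of AKR1C1 to AKR1C2 counts was -0.84 in the 12 limited libraries and -1.28 in full medium, a difference of 0.44, and it was higher in 11 of 12 pairs of the same number (exact permutation test within numbers, two-sided, p = 0.016, adjusted p = 0.024 over 3 ratios). The ratio of AKR1C1 to AKR1C3 was 0.24 in limited libraries and -0.06 in full medium, a difference of 0.29 seen in 12 of 12 pairs (exact permutation p = 0.008, the smallest that 125 arrangements can give, adjusted p = 0.024). The ratio of AKR1C3 to AKR1C2 was -1.08 in limited libraries and -1.22 in full medium, a difference of 0.14 seen in 8 of 12 pairs that did not pass (exact permutation p = 0.144). These 3 tests were chosen after seeing the data, a choice that the adjustment over 3 ratios does not cover. The 12 pairs of each ratio share the 3 full-medium libraries and are not independent of each other. Without replicate 2 of full medium, and so without that number, the exact permutation p was 0.08 for both ratios of AKR1C1, and without replicate 3 of full medium it was 0.08 for AKR1C1 over AKR1C2, whose difference was then 0.31, where the smallest possible is 0.04. Because AKR1C1 and AKR1C2 share long identical stretches, these ratios depend on how shared reads were counted.

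**Figure D3:**
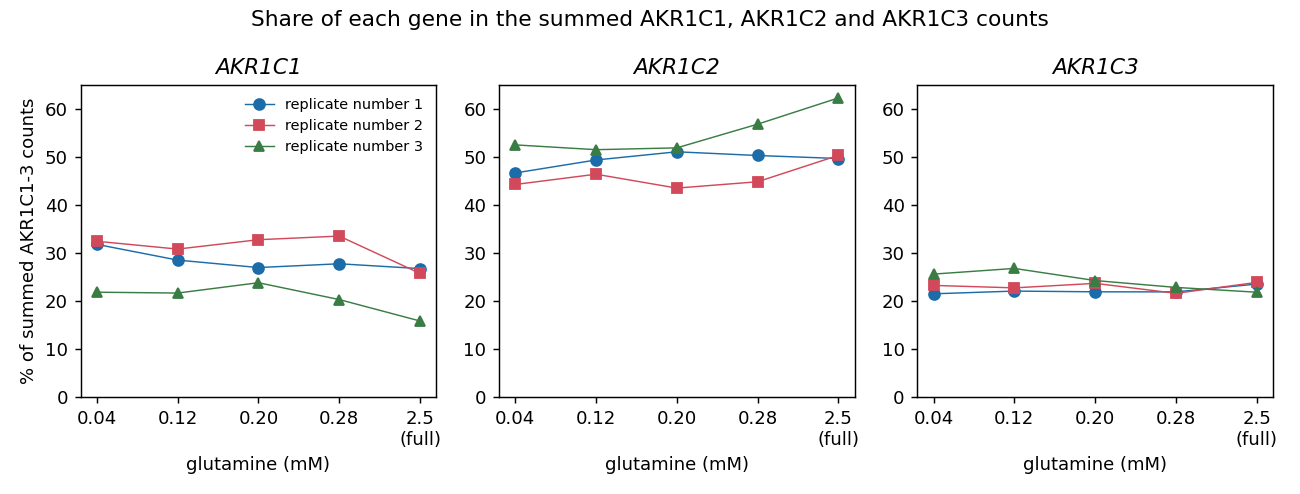
Share of AKR1C1, AKR1C2 and AKR1C3 in their summed counts, in % (vertical axes, from 0 to 65), by glutamine concentration in mM, with points of 1 replicate number joined. AKR1C1 took 20.3 to 33.5% in limited libraries and 15.9 to 26.8% in full medium, and each line for AKR1C1 is lowest in full medium.

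When the mean of the 4 limited groups was compared with full medium, 5 of the 9 genes rose with the block, where 8.67% of all genes rose. These were AKR1C1 by 0.61 (SE 0.0858, edgeR adjusted p = 1.01e-05), NQO1 by 0.38 (SE 0.0618, 6.42e-05), AKR1C3 by 0.33 (SE 0.0839, 0.00633), TXNRD1 by 0.31 (SE 0.0672, 0.0015) and AKR1C2 by 0.20 (SE 0.0653, 0.0346). NQO1, TXNRD1 and AKR1C1 kept this call when any of the 15 libraries was left out, AKR1C3 in 13 of 15 fits and AKR1C2 in 8 of 15. AKR1C3 lost it without replicate 2 or 3 of full medium (adjusted p up to 0.0804), and AKR1C2 without replicate 3 at 0.04 mM or replicate 1 or 2 at 0.20 mM or replicate 1 or 2 at 0.28 mM or replicate 1 or 2 of full medium (adjusted p up to 0.188). AKR1C2 also lost this call without both libraries rich in mitochondrial ribosomal RNA. Without the block 0 of the 9 passed by edgeR or DESeq2, with 4 at an unadjusted edgeR p under 0.05 as for 13% of all genes, and edgeR called 0.289% of all genes (40 genes) and DESeq2 242 genes.

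Within the limited range, the values for NQO1 and AKR1C1 at 0.04 mM were 0.12 (SE 0.0763) and 0.15 (SE 0.104) above those at 0.28 mM on the log2 scale, and neither passed with the block (edgeR adjusted p 0.685 and 0.71). In the comparison of 0.04 with 0.28 mM, 0 of the 9 genes passed by edgeR with or without the block or by DESeq2, with 0 at an unadjusted edgeR p under 0.05 in either fit. Of all genes 0.0434% were called with the block and 0% without, and 9.02 and 2.05% had an unadjusted p under 0.05. The slope over log2 glutamine in the 12 limited libraries passed for 0 of the 9 by the same tools, again with 0 at an unadjusted edgeR p under 0.05, where 7.69% of all genes had one with the block and 2.21% without, and 0% were called in either fit. That slope was below 0 for 8 of the 9 genes with the block, the exception being SRXN1 at 0.07 (SE 0.164). The number of the 9 genes called differed among concentrations, but neither of these tests within the limited range called any of the 9. Other pairs of limited concentrations were not tested against each other.

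Scaling each library to its ERCC counts in place of TMM moved the median log2 change of all genes with the block to -0.18 at 0.12 mM and -0.13 at 0.28 mM, and left it at 0.0005 at 0.04 mM. On that scale 2 of the 9 genes rose at 0.04 mM, NQO1 and AKR1C1, 1 at 0.12 mM and 1 at 0.20 mM, both times AKR1C1, and 0 at 0.28 mM. Of all 13828 genes 282 rose at 0.04 mM on that scale, 141 at 0.20 mM and 18 at 0.28 mM. The split of all genes also moved, to 76 rising and 1130 falling at 0.12 mM, against 610 and 539 with TMM. The differences of the genes that rose with TMM all kept their sign with ERCC scaling, the lowest being 0.11 at a single concentration, for AKR1C2 at 0.12 mM, and 0.10 for the mean of the limited groups, again for AKR1C2.

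Among the regulators of NRF2, 4 of 12 rose and 0 fell at 0.04 mM with the block. These were MAFF, a small MAF partner, at 42.4 ± 2.13 and 29.1 ± 4.67 CPM at 0.04 mM and in full medium (log2 difference 0.52, edgeR adjusted p = 0.00267), MAFG, another partner (0.37, 0.0104), the repressor BACH1 (0.33, 0.00908) and NFE2L2 itself. NFE2L2 had 119 ± 13.4 CPM at 0.04 mM and 99.0 ± 4.29 CPM in full medium (SD, n = 3 each), a rise of 0.25 (0.0117), and also rose at 0.12 mM (0.21, 0.0459) and 0.20 mM (0.31, 0.00212) but did not pass at 0.28 mM (0.15, 0.271). KEAP1 had 84.4 ± 3.64 CPM at 0.04 mM and 81.7 ± 6.14 CPM in full medium, a difference of 0.03 within the replicate spread (edgeR adjusted p = 0.839).

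Of 7 tested genes of glutathione synthesis and cystine import, 3 rose and 1 fell at 0.04 mM with the block. SLC7A11, the cystine importer, rose by 0.51 to 106 ± 50.1 CPM, against 69.3 ± 15.5 CPM in full medium (edgeR adjusted p = 0.00171), and the 2 subunits of the rate-limiting enzyme of glutathione synthesis, GCLM (0.28, 0.0291) and GCLC (0.26, 0.0437), also rose. GSS, which adds glycine in the last step, fell by 0.47 to 44.5 ± 5.28 CPM, against 61.0 ± 2.53 CPM in full medium (0.00049). GCLC rose again at 0.12 mM (0.38, 0.0052) and 0.20 mM (0.28, 0.0262), where GSS fell again (-0.27, 0.04 and -0.37, 0.00276), while GCLM did not pass at either (0.03, 0.908 and 0.16, 0.23).

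Of 10 thioredoxin and peroxiredoxin genes, 1 rose and 2 fell at 0.04 mM. TXN, the cytosolic thioredoxin that TXNRD1 reduces, rose by 0.33 (edgeR adjusted p = 0.0264), whereas TXN2, its mitochondrial form, fell by 0.42 (0.0033) and the peroxidase PRDX2 fell by 0.25 (0.0259). SESN1 was at 0.25 and did not pass (0.154). Of 7 genes of NADPH supply, 1 rose, the malic enzyme ME1 (0.31, 0.0283), and TKT (0.18, 0.0981) and MTHFD1 (-0.14, 0.213) did not pass. Of 7 tested genes of iron and heme handling 0 passed at 0.04 mM by edgeR with the block, with HMOX2, the constitutive heme oxygenase, at -0.22 (0.0509), SLC48A1 at 0.43 (0.163), FTH1 at 0.11 (0.369) and FECH at 0.13 (0.484).

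Of 21 tested genes of conjugation, carbonyl reduction and export, 3 rose and 0 fell at 0.04 mM with the block. MGST1, a microsomal glutathione transferase, rose by 0.30 (edgeR adjusted p = 0.00116), ALDH3A2, a fatty aldehyde dehydrogenase, by 0.28 (0.00465) and ABCC2, an exporter of conjugates, by 0.58 (0.0129). CES1, a carboxylesterase with a near-identical pseudogene, so that its level is uncertain, was at 2.72 ± 1.24 CPM at 0.04 mM and 1.11 ± 0.717 CPM in full medium and did not pass there (1.17, 0.0577), but rose at 0.12 mM (1.44, 0.0179) and 0.20 mM (1.71, 0.00221). Of 4 other aldo-keto reductases tested, AKR1B1, the aldose reductase, rose at all 4 concentrations, by 0.32 (0.00144), 0.34 (0.00122), 0.29 (0.00266) and 0.24 (0.0445) from 0.04 to 0.28 mM. Its level was 187 ± 19.3 CPM at 0.04 mM and 151 ± 25.2 CPM in full medium (SD, n = 3 each). AKR1A1 (-0.16, 0.294), AKR7A2 (-0.15, 0.33) and KCNAB2 (-0.15, 0.618) did not pass at 0.04 mM.

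Over the 68 tested genes of these 7 lists, 13 rose and 3 fell at 0.04 mM, 13 rose and 1 fell at 0.12 mM, 11 rose and 3 fell at 0.20 mM, and 2 rose and 0 fell at 0.28 mM with the block. Of all genes 6.23% fell at 0.04 mM, 3.9% at 0.12 mM, 7.15% at 0.20 mM and 0.846% at 0.28 mM, beside the shares that rose given above. Their median log2 difference was 0.05, 0.06, 0.06 and 0.07. Without the block 0 of the 68 passed in any of the 4 comparisons by edgeR, with 10, 9, 7 and 6 at an unadjusted p under 0.05.

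**Figure D4:**
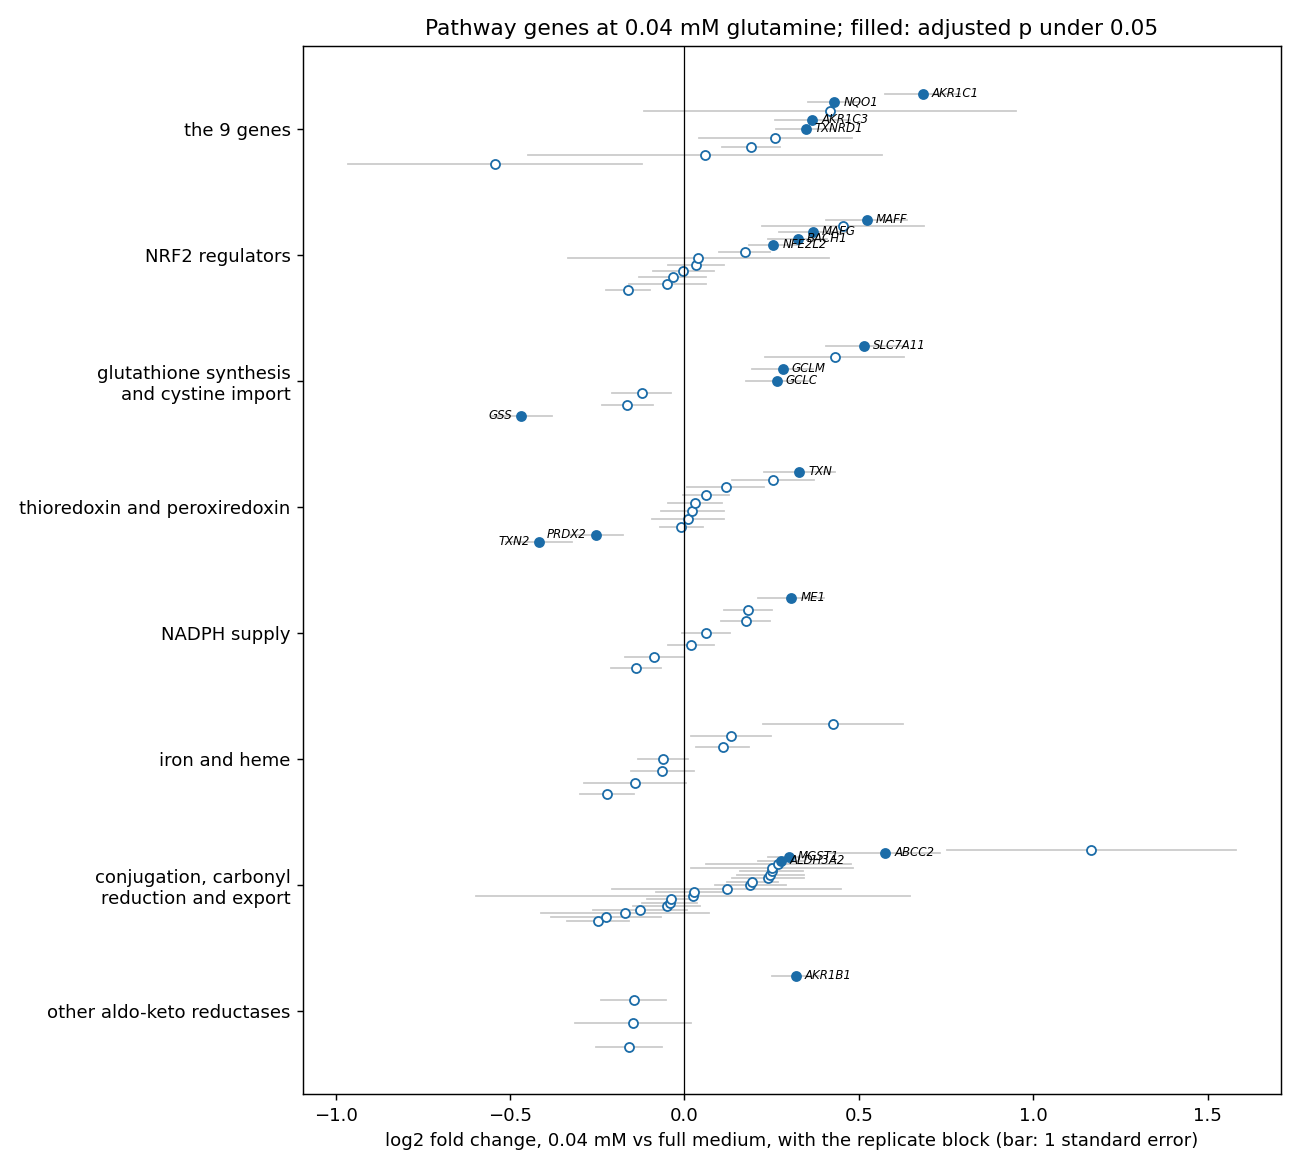
Log2 fold change at 0.04 mM against full medium (horizontal axis, bars of 1 standard error) of the 9 genes and of the tested genes of 7 pathway lists, from edgeR with the replicate block, with named filled points where the adjusted p was under 0.05. GSS, TXN2 and PRDX2 are the 3 filled points below 0, and the filled points above 0 are 4 of the 9 genes and 13 genes of the lists.

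With the mean of each replicate number removed, NQO1 and TXNRD1 varied most closely together of all pairs of the 9 genes over the 15 libraries (Pearson r of log2 CPM 0.967), followed by NQO1 and AKR1C1 (0.937) and TXNRD1 and AKR1C3 (0.915). AKR1C2 was less close to NQO1 (0.705), and HMOX1 had r of at most 0.02 with each of the other 8 and -0.37 with NQO1. Among 10301 genes with a symbol and at least 5 CPM, and with the 9 genes left out, the 3 most like NQO1 were DUSP1, a phosphatase of MAP kinases (r 0.964), PTTG1IP, which encodes a binding protein of securin (0.958), and HTRA1, a secreted protease (0.957). The 3 most like the summed AKR1C genes were DDX59, a putative RNA helicase (0.906), ZSWIM4, a zinc finger gene (0.890), and YIPF1, a Golgi membrane protein gene (0.888). These r are descriptions, since the libraries share groups and sequencing depth, and low counts limit those of HMOX1, SRXN1 and AKR1B10.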

How the data were processed

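Total RNA of 15 MCF10A cultures was depleted of ribosomal RNA, made into KAPA RNA HyperPrep libraries with ERCC spike-ins and read on a NextSeq 2000, per the labels' protocols. The authors deposited 1 table of raw counts, whole numbers with no scaling, in which 62754 Ensembl genes and 92 ERCC spike-ins are rows and libraries are columns. The submitters' processing notes name the builds hg38 and GRCh38.p14. Not given in the sources used here are the aligner, the annotation, the strand setting and the treatment of reads that fit several genes. Each of the 15 columns matched a sample. Symbols were found for 42343 genes, coordinates and upstream sequence are from RefSeq on GRCh38.p14, and transcripts and exon overlap are from GENCODE 29, whose genes may differ from those counted. Depth was 3704170 to 13361406 gene counts per library.

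Tests were planned with edgeR 4.0.16 (R 4.3.3), filterByExpr at a minimum count of 10 and total of 15 and TMM factors. The filter left 13828 genes, which held 99.72% or more of any library. All 15 libraries entered a single quasi-likelihood fit by group, with Benjamini-Hochberg adjusted p under 0.05 and no fold threshold. Standard errors are the log2 fold change over the root of F. The replicate numbers in the titles pair the libraries: with group means removed, 30 of 30 pairs with the same number had r of 0.184 to 0.489, those with different numbers -0.406 to 0.0549, and 15 of 15 libraries correlated best with their own number. What the numbers stand for is not stated. The value with the number as a block is therefore given beside the planned one. Lone comparisons of AKR1C ratios used an exact permutation test within replicate numbers.

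The 9 genes, the 7 pathway lists (written from general knowledge) and the tests were chosen with earlier results of these data known. Named are the 9 genes, of each list up to 4 genes with the smallest p at 0.04 mM with the block, NFE2L2, KEAP1, BACH1 and AKR1C4 in any case, and the 3 genes most like NQO1 and the AKR1C sum by Pearson r of log2 CPM (prior count 2). A gene of the NADPH list that this rule names is not reported here. The alternatives tried were DESeq2 1.42.0 and its size factors, scaling to ERCC counts, filters of 1 count in all or of 5 CPM in 3 libraries, fits of only the groups compared, and fits without each library in turn or without both libraries richest in mitochondrial rRNA. Leaving out all libraries numbered 3 and the AKR1C ratio tests were added after seeing the data. Scripts were tested on simulated data. Tables and figures used Python 3.11.15, pandas 2.3.3, matplotlib 3.10.9 and Biopython 1.88.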

Additional observations from a re-analysis of the deposited data

How the results depend on the processing

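The calls rest on the replicate block. The planned fit without it called 0 of the 9 genes in all 7 comparisons. With the block, edgeR, DESeq2, DESeq2 size factors and the filter of 5 CPM each called 4, 5, 3 and 2 of the 9 from 0.04 to 0.28 mM and 5 for the mean of the limited groups. In the same order and in either direction, edgeR called 1858, 1149, 2050, 287 and 2357 of all 13828 genes. DESeq2 called 1742, 1096, 1901, 352 and 2140, and DESeq2 size factors 1890, 1152, 2061, 291 and 2358. The filter of 5 CPM called 1968, 1242, 2217, 355 and 2473 of 10777 genes. With the block, no filter gave 4, 5, 4, 2 and 5, the compared groups alone 4, 4, 4, 2 and 5, ERCC scaling 2, 1, 1, 0 and 2, leaving out both libraries with most mitochondrial rRNA 2, 4, 4, 2 and 4, and leaving out all libraries numbered 3 2, 5, 2, 0 and 5. No filter called 1689, 1069, 1739, 385 and 2091 of 32760 genes. The compared groups alone called 1171, 272, 1652, 304 and 2357 of 13828, and ERCC scaling 506, 1206, 421, 120 and 1350. Without both libraries with most mitochondrial rRNA 1438, 873, 2135, 338 and 2397 were called. Without those numbered 3 it was 996, 463, 985, 1 and 1367. Without the block, no filter gave 1, 1, 1, 0 and 1, each time AKR1C1, and called 159, 58, 84, 19 and 248 of 32760 genes. The slope with all 15 libraries and the block called 4 of the 9, all falling as glutamine rose, and 2163 of all 13828 genes. Leaving out 1 library at a time gave 2 to 4, 4 to 5, 2 to 4, 0 to 3 and 3 to 5 with the block, and 0 to 0 without. Those fits with the block called 963 to 2088, 550 to 1438, 988 to 1880, 24 to 775 and 1467 to 2409 of all genes. The cause of these differences between settings was not tested.

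Of 1893 alternative values of single genes, 1550 kept direction and side of the threshold, 290 passed only in the alternative, and 53 changed sign, 0 of them called. OSGIN1 at 0.28 mM was -0.0044 with ERCC scaling and -0.014 with the block too. With all 15 libraries the slope was 0.075 for HMOX1 (0.078 with the block) and -0.055 for SRXN1 (-0.032 with it). AKR1C2 at 0.04 against 0.28 mM was -0.0027 with no filter and the block. SRXN1 at 0.04 mM was -0.15 without both libraries rich in mitochondrial rRNA. Without the libraries numbered 3, SRXN1 at 0.20 mM was 0.055 and OSGIN1 -0.092.

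Leaving out 1 library at a time, log2 values that changed sign ran as follows. At 0.04 mM against full medium they were OSGIN1 -0.018 to 0.49 and SRXN1 -0.42 to 0.47; at 0.12 mM HMOX1 -0.41 to 0.25; at 0.20 mM OSGIN1 -0.26 to 0.25 and SRXN1 -0.88 to 0.18; at 0.28 mM OSGIN1 -0.18 to 0.32 and SRXN1 -0.15 to 0.87. For the mean of the limited groups they were OSGIN1 -0.069 to 0.44 and SRXN1 -0.24 to 0.44. For 0.04 against 0.28 mM they were AKR1C1 -0.13 to 0.36, AKR1C2 -0.11 to 0.14, HMOX1 -0.039 to 0.75, OSGIN1 -0.11 to 0.35, SRXN1 -0.80 to 0.35 and TXNRD1 -0.018 to 0.26. For the slope they were AKR1B10 -0.27 to 0.0068, AKR1C1 -0.10 to 0.0075, AKR1C2 -0.062 to 0.028 and SRXN1 -0.14 to 0.16. HMOX1, SRXN1 and AKR1B10 had 2 to 33 counts per library.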
